A study of Mus musculus with 16 samples.

Results

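The genes described here control vascular tone and protect the vessel wall: the makers and receptors of nitric oxide, prostanoids, endothelin, angiotensin, kinins, natriuretic peptides and catecholamines, together with antioxidant enzymes, NADPH oxidases and 2 genes that act against thrombosis. They are 31 genes chosen by name from the 24011 gene symbols of the count table. They were measured by RNA sequencing in aortas and in pieces of the tip of the major liver lobe of wild-type female C57BL/6 mice that had been ovariectomized at 6 to 7 weeks of age, which removes their main source of estrogen. One week later the tissue was kept outside the body for 4 h at body temperature in culture medium (DMEM), with 10 nM 17b-estradiol (E2, the active natural estrogen) or with ethanol vehicle. The 16 libraries form 4 groups of 4: E2 aorta, vehicle aorta, E2 liver and vehicle liver.

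Per the labels, 8 libraries were amplified from 50 ng of RNA with an Ovation kit, and 8 were TruSeq libraries of poly-A RNA that started from 600 ng of a single aorta or liver fragment. The series text instead speaks of 2 biological replicates for each condition, each with tissue pooled from 4 mice. The columns of the table carry the suffixes o1, o2, n1 and n2, which no label explains, so libraries are named by suffix here and values of a group are always given in the order o1, o2, n1, n2. The 8 o and the 8 n libraries are called library types below, as a name for the 2 letters only. The labels also give 2 instruments. Whether the letters follow the kits, the instruments or something else is not given in the sources used here. Levels are in CPM, which are reads of a gene for every 1000000 reads counted to genes, after TMM scaling of the libraries. The labels do not say whether the 2 n libraries of a group came from different animals, so p-values measure the spread between libraries, part of which may be technical.

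The libraries held 3896733 to 19823982 reads counted to genes. The single gene Rn45s took 25.7% to 34.5% of these reads in the o libraries of liver. It took 2.94% to 5.52% in the n libraries of liver and 3.38% to 6.20% in aorta. The summed level of 10 smooth muscle markers was 10990 to 33200 CPM in E2 aortas and 11390 to 21120 CPM in vehicle aortas, against 238 to 522 CPM in E2 livers and 219.7 to 541 CPM in vehicle livers. The 9 hepatocyte markers summed to 64.1 to 394 CPM in E2 aortas and 104 to 617 CPM in vehicle aortas, and to at least 79500 CPM in every liver library, so the marker levels went with both tissue labels. The 12 endothelial markers overlapped between the tissues, from 807 to 1256 CPM over all 16 libraries. The vehicle n2 aorta stood apart: its 8 lymphocyte markers summed to 148 CPM, against 14.2 to 29.3 CPM in the 4 E2 aortas and 8.42 to 35.7 CPM in the other 3 vehicle aortas. Pgr and Greb1, classical estrogen targets, had log2 fold changes of 1.97 ± 0.23 (SE) and 2.34 ± 0.45 for E2 over vehicle in aorta. The edgeR adjusted p of Pgr was 0.0898, the lowest value of that comparison, which it shared with another gene. That of Greb1 was 0.517. In liver both had too few reads to be tested, so they gave no check there that E2 acted.

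Vascular tone is set by the contraction of smooth muscle. Endothelial cells release nitric oxide, made by Nos3, and prostacyclin, made by the cyclooxygenases Ptgs1 and Ptgs2 with Ptgis. Both relax smooth muscle, through the soluble guanylate cyclase Gucy1a3/Gucy1b3 and the receptor Ptgir. Endothelin-1, angiotensin II and alpha-1 adrenergic receptors contract it. Superoxide made by NADPH oxidases destroys nitric oxide, and superoxide dismutases remove that superoxide. Estrogen receptors bind DNA at the estrogen response element, a palindrome with GGTCA on one side and TGACC on the other, and estrogen is known in many vascular studies for acting on nitric oxide and prostacyclin production, while in liver it is known for raising angiotensinogen.

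Promoter sequences are shown for 3 members: Edn1 (endothelin-1), with an unadjusted p under 0.05 for E2 in aorta, Agt (angiotensinogen), with such a p in liver, and Ptgs2 (cyclooxygenase-2), which passed for E2 under 1 of the settings tried. Each is the stretch of 250 bases before the annotated transcription start, from RefSeq on build GRCm38.p6, written 5′ to 3′ on the strand of the gene. Capitals mark a GGTCA or TGACC. The Edn1 window is chr13:42301226-42301475 (plus strand), that of Ptgs2 is chr1:150099781-150100030 (plus strand) and that of Agt is chr8:124569707-124569956 (minus strand).
Edn1: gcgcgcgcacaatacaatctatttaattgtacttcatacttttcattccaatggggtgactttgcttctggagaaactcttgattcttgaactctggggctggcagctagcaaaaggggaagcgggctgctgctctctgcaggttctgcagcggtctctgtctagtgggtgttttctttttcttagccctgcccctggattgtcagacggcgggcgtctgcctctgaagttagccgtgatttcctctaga
Ptgs2: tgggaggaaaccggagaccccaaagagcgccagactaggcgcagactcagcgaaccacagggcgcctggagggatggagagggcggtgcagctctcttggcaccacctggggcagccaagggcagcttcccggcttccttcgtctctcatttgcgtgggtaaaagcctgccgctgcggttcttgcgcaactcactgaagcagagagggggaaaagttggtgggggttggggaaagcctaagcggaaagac
Agt: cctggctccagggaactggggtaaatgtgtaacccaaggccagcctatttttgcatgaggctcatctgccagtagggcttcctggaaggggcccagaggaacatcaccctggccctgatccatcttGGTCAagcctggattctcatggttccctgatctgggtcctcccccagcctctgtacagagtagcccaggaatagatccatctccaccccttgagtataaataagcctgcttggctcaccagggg
Agt held a GGTCA 124 bases before its start, and the windows of Edn1 and Ptgs2 held neither arm. Of the 31 members, 21 had an entry, with 26 windows among them because some have several starts. The full element, which is GGTCA, then any 3 bases, then TGACC, was in 0 of these 26 windows, and in 0.0639% of all 32851 windows of the same length in the table. At least 1 arm, on either strand, was in 10 of the 26 windows, and in 35.2% of all windows. Those 10 belonged to Nos1, Ptgs1, Ece1, Ace, Agt, Npr1, Gucy1a3, Sod1, Sod2 and Cat. Adra1d and Hmox1, which had smaller unadjusted p for E2 in aorta than Edn1, had no entry. The reads had been aligned to the older build mm9, per the submitters' processing notes, so these coordinates belong to RefSeq only.

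No member changed with E2 past the threshold in either tissue. edgeR's quasi-likelihood test, with p-values adjusted over all genes by the Benjamini-Hochberg method, called 0 of 13698 genes in aorta, which is 0%, and so 0 of the 30 members tested there. In liver it called 0 of 11726 genes, again 0%, and 0 of 24 members tested. At an unadjusted p under 0.05, 3 of 30 members stood out in aorta, Adra1d, Edn1 and Hmox1, against 3.61% of all genes, and 1 of 24 in liver, Agt, against 4.28%. DESeq2 called 24 genes in aorta and 0 in liver, and limma voom 0 in both, with 0 members in each case. With the suffix as a block, edgeR called 12 genes in aorta, 11 higher and 1 lower, and again 0 members. The median member had a standard error of 0.28 log2 units in aorta and 0.29 in liver, with a 95% interval of about 0.62 units to either side.

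The members differed far more between tissues. With vehicle, 19 of 29 members tested, or 65.5%, differed between aorta and liver at an adjusted p under 0.05 and an absolute log2 fold change over 1, and 47.5% of the 12607 genes tested did so. Higher in aorta were 13: Nos3, Ptgis, Ptgs2, Ptger4, Ptgir, Ace, Adra1d, Bdkrb2, Hmox1, Sod3, Nox4, Thbd and Plat, where 24.1% of all genes were higher. Lower in aorta were 6: Ptgs1, Ednra, Agtr1a, Agt, Sod1 and Cat, where 23.4% of all genes were lower. The median log2 fold change of aorta over liver was 0.83 over the 29 members and 0.054 over all genes. In bulk tissue, a lower level of an RNA can come from fewer cells of the type that makes it or from less of it per cell, and these cannot be told apart.

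**Figure D1:**
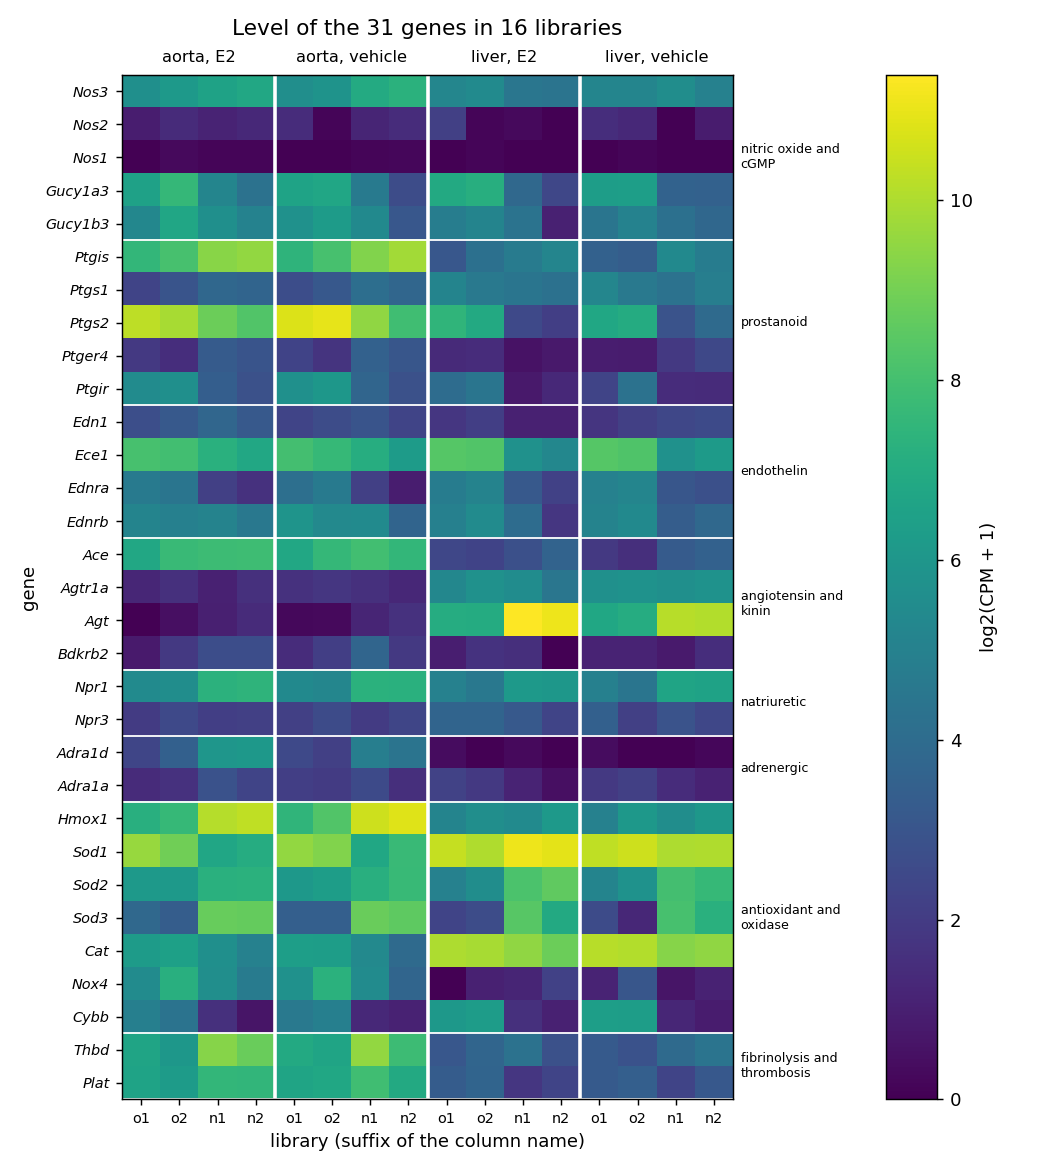
Level of the 31 genes (rows, grouped by pathway) in the 16 libraries (columns, grouped by tissue and treatment, with the suffix below), as log2(CPM + 1) in colour from 0 in dark purple to the highest in yellow. E2 and vehicle columns of a tissue look alike, aorta and liver columns differ clearly for Ptgs2, Ptgis, Ace, Agt, Adra1d, Cat, Nox4, Thbd and Plat, and o and n columns differ for Sod3, Cybb and others.

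Of the nitric oxide and cGMP genes, only Nos3 passed the test between tissues. Nos3, the endothelial nitric oxide synthase, had 50.5, 71.7, 93.3 and 113 CPM in E2 aortas, against 48.6, 56.0, 125 and 153 CPM in vehicle aortas. In liver Nos3 had 36.4, 43.2, 21.5 and 19.6 CPM in E2 livers, against 35.4, 34.9, 47.7 and 31 CPM in vehicle livers. All 4 vehicle aortas were above all 4 vehicle livers, and E2 and vehicle overlapped in both tissues. Nos3 was higher in aorta by 1.20 ± 0.34 log2 units (SE; edgeR adjusted p = 0.0107). The difference was 1.71 (edgeR adjusted p = 0.00535) over the n libraries alone and 0.57 (edgeR adjusted p = 0.184) over the o libraries alone, and without the vehicle n2 liver it was 1.04 (edgeR adjusted p = 0.0506), which ended the call.

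The other synthases were scarce. Nos2, the inducible form, was at 0.902 to 1.67 CPM in E2 aortas, 0.110 to 1.73 CPM in vehicle aortas, 0 to 3.48 CPM in E2 livers and 0 to 1.77 CPM in vehicle livers. Nos1, the neuronal form, had 9 reads over the 4 E2 aortas, 5 over the 4 vehicle aortas, 1 over the E2 livers and 1 over the vehicle livers, and was tested in no comparison. The ratio of vehicle aorta to vehicle liver for Nos1 was 1.94, with a 95% counting interval of 0.217 to 91.8.

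Both subunits of soluble guanylate cyclase, the receptor that nitric oxide activates, were present in both tissues. Gucy1a3, the alpha subunit, had 92.0, 189.9, 35.0 and 18.6 CPM in E2 aortas, against 97.8, 105, 24.3 and 5.18 CPM in vehicle aortas. In liver Gucy1a3 had 121, 141, 13.2 and 4.36 CPM in E2 livers, against 81.4, 82.7, 11.1 and 10.7 CPM in vehicle livers. The o libraries were above the n libraries in both tissues. Gucy1b3, the beta subunit, had 37.9, 105, 49.5 and 32.0 CPM in E2 aortas, against 53.6, 74.3, 41.3 and 7.45 CPM in vehicle aortas. In liver Gucy1b3 had 27.5, 34.7, 19.5 and 1.09 CPM in E2 livers, against 20.4, 31.7, 17.4 and 13.0 CPM in vehicle livers. The vehicle n2 aorta was the lowest aorta for both subunits and the E2 n2 liver was the lowest liver. Between tissues, Gucy1a3 was 0.37 ± 0.40 and Gucy1b3 1.00 ± 0.46 log2 units, aorta over liver (edgeR adjusted p = 0.460 and 0.0858). Without the vehicle n2 aorta, Gucy1b3 reached 1.37 (edgeR adjusted p = 0.00424) and passed.

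Of the 5 prostanoid genes, 4 were higher in aorta, and the remaining one, Ptgs1, was lower. Ptgis, prostacyclin synthase, had 185, 267, 654 and 737 CPM in E2 aortas, against 168, 268, 596 and 902 CPM in vehicle aortas. In liver Ptgis had 7.59, 17.5, 26.1 and 35.9 CPM in E2 livers, against 10.6, 9.16, 41.6 and 26.8 CPM in vehicle livers. The lowest aorta was far above the highest liver, and n libraries were above o libraries in both tissues. The difference was 4.45 ± 0.34 log2 units (edgeR adjusted p = 6.77e-07), and it was 4.35 over the n libraries alone and 4.46 over the o libraries alone.

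Ptgs2, the inducible cyclooxygenase, had 1238, 951, 462 and 318 CPM in E2 aortas, against 1771, 2010, 721 and 237 CPM in vehicle aortas. In liver Ptgs2 had 172, 119, 4.72 and 3.27 CPM in E2 livers, against 108, 127, 6.48 and 14.1 CPM in vehicle livers. Each vehicle aorta was above each vehicle liver, while within a tissue the o libraries were above the n libraries. Ptgs2 was higher in aorta by 4.75 ± 0.53 log2 units (edgeR adjusted p = 1.43e-05), with 5.44 over the n libraries alone and 4.00 over the o libraries alone. Ptgs1, the constitutive cyclooxygenase, had 4.06, 6.75, 13.1 and 11.7 CPM in E2 aortas, against 5.50, 7.72, 16.4 and 12.5 CPM in vehicle aortas. In liver Ptgs1 had 34.2, 23.2, 20.8 and 17.8 CPM in E2 livers, against 36.3, 23.2, 18.9 and 28.1 CPM in vehicle livers. Its vehicle aortas were all below its vehicle livers, with a log2 fold change of -1.40 ± 0.40 (edgeR adjusted p = 0.0118). That call was lost without the vehicle o1 liver, at -0.92 (edgeR adjusted p = 0.0927), without the o2 liver, at -1.17 (edgeR adjusted p = 0.0720), and without the o1 aorta, at -0.91 (edgeR adjusted p = 0.0922). It was -0.80 (edgeR adjusted p = 0.126) over the n libraries alone and -2.16 (edgeR adjusted p = 0.00368) over the o libraries alone.

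Per kilobase of transcript, the prostanoid receptors were lower in level than Ptgis and Ptgs2 in vehicle aorta. Ptgir, the prostacyclin receptor, had 43.5, 50.4, 9.62 and 6.02 CPM in E2 aortas, against 52.4, 64.4, 12.2 and 6.12 CPM in vehicle aortas. In liver Ptgir had 15.5, 20.4, 0.709 and 1.45 CPM in E2 livers, against 4.13, 18.4, 1.72 and 1.62 CPM in vehicle livers. The vehicle o2 liver was well above the other 3 vehicle livers and above both n libraries of vehicle aorta, so the tissues overlapped when library types were mixed. Within n and within o, each vehicle aorta was above each vehicle liver, and the difference was 2.55 ± 0.43 log2 units (edgeR adjusted p = 4.26e-04). Ptger4, a prostaglandin E2 receptor that raises cAMP, had 2.71, 1.81, 8.596 and 6.71 CPM in E2 aortas, against 3.95, 2.31, 10.6 and 7.30 CPM in vehicle aortas. In liver Ptger4 had 1.58, 1.74, 0.472 and 0.726 CPM in E2 livers, against 0.885, 0.852, 2.67 and 4.54 CPM in vehicle livers. Its difference between tissues, 1.48 ± 0.47 log2 units (edgeR adjusted p = 0.0202), lost its call without the vehicle n1 liver, at 1.47 (edgeR adjusted p = 0.0596), or the vehicle n1 aorta, at 1.40 (edgeR adjusted p = 0.0566). It was 1.21 (edgeR adjusted p = 0.0923) over the n libraries alone and 1.82 (edgeR adjusted p = 0.0819) over the o libraries alone.

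Among the endothelin genes, Ednra alone was called between tissues, and weakly. Edn1, the peptide, had 5.71, 8.13, 12.4 and 8.21 CPM in E2 aortas, against 4.12, 5.29, 6.88 and 4.00 CPM in vehicle aortas. In liver Edn1 had 2.53, 3.27, 1.06 and 1.09 CPM in E2 livers, against 2.36, 3.41, 4.39 and 4.87 CPM in vehicle livers. The 2 groups of aortas overlapped, although the 4 E2 values were each above the vehicle value of their suffix, and the 2 n libraries of E2 liver were the lowest of all. With vehicle, aorta over liver was 0.46 ± 0.44 log2 units (edgeR adjusted p = 0.403). Ece1, the enzyme that cuts active endothelin from its precursor, had 272, 243, 149 and 114 CPM in E2 aortas, against 251, 195, 134 and 75.8 CPM in vehicle aortas. In liver Ece1 had 339, 311, 54.1 and 37.4 CPM in E2 livers, against 334, 302, 53.4 and 73.0 CPM in vehicle livers. The o libraries were above the n libraries in both tissues, and aorta over liver was 0.11 ± 0.35 (edgeR adjusted p = 0.818).

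Ednra, the endothelin receptor of smooth muscle that drives contraction, had 23.8, 20.3, 3.42 and 2.11 CPM in E2 aortas, against 17.0, 24.7, 3.401 and 0.863 CPM in vehicle aortas. In liver Ednra had 26.9, 32.8, 8.03 and 3.63 CPM in E2 livers, against 30.96, 35.6, 7.24 and 5.84 CPM in vehicle livers. Its levels split by library type more than by tissue, with every o library above every n library within a tissue. With vehicle it was lower in aorta at -1.11 ± 0.43 log2 units (edgeR adjusted p = 0.0495). The call was lost on leaving out any of 7 of the 8 vehicle libraries, where the adjusted p was 0.0660 without the o2 aorta and up to 0.154 without the n1 liver, and it held without the n1 aorta. It was -1.67 (edgeR adjusted p = 0.0862) over the n libraries alone and -0.68 (edgeR adjusted p = 0.161) over the o libraries alone. Ednrb, the receptor that on endothelium releases nitric oxide, had 34.4, 30.6, 33.3 and 22.6 CPM in E2 aortas, against 57.9, 40.3, 43.0 and 11.8 CPM in vehicle aortas. In liver Ednrb had 29.7, 44.6, 15.1 and 2.54 CPM in E2 livers, against 33.0, 41.2, 9.15 and 13.3 CPM in vehicle livers. The tissues overlapped, at 0.83 ± 0.43 log2 units for aorta over liver (edgeR adjusted p = 0.126).

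The angiotensin and kinin genes split between the tissues. Agt, the precursor of angiotensin, had 0, 0.363, 1.03 and 1.61 CPM in E2 aortas, against 0.172, 0.220, 1.25 and 2.04 CPM in vehicle aortas. In liver Agt had 131, 129, 2690 and 2225 CPM in E2 livers, against 109, 131, 1159 and 1093 CPM in vehicle livers. Agt was lower in aorta by the widest margin of any member, at -9.37 ± 0.42 log2 units (edgeR adjusted p = 4.68e-08), and its aorta reads were few, 74 over the 4 E2 aortas and 63 over the 4 vehicle aortas. The 9 hepatocyte markers were also read in aorta, at the levels given above, and their part in the aorta values of Agt was not tested. Ace, which converts angiotensin I to angiotensin II, had 112, 208, 225 and 229 CPM in E2 aortas, against 114, 189, 242 and 185 CPM in vehicle aortas. In liver Ace had 4.43, 3.92, 5.91 and 11.3 CPM in E2 livers, against 2.65, 1.92, 8.58 and 10.7 CPM in vehicle livers. All aortas were above all livers, by 5.17 ± 0.43 log2 units with vehicle (edgeR adjusted p = 1.35e-06), with 4.36 over the n libraries alone and 6.09 over the o libraries alone.

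Agtr1a, the main angiotensin II receptor, had 1.35, 1.96, 1.07 and 2.03 CPM in E2 aortas, against 2.06, 2.48, 2.03 and 1.41 CPM in vehicle aortas. In liver Agtr1a had 38.3, 53.2, 45.4 and 21.1 CPM in E2 livers, against 51.3, 54.9, 50.7 and 55.8 CPM in vehicle livers. Every aorta was below every liver, and with vehicle the log2 fold change of aorta over liver was -4.74 ± 0.34 (edgeR adjusted p = 4.19e-07). Bdkrb2, the constitutive bradykinin receptor, had 0.752, 2.69, 5.52 and 5.56 CPM in E2 aortas, against 1.72, 3.36, 12.3 and 2.67 CPM in vehicle aortas. In liver Bdkrb2 had 0.949, 2.18, 1.89 and 0 CPM in E2 livers, against 1.18, 1.17, 0.763 and 1.79 CPM in vehicle livers. The vehicle n1 aorta was far above all others. The difference of 1.86 ± 0.66 log2 units (edgeR adjusted p = 0.0321) was 1.08 (edgeR adjusted p = 0.158) without that library, and its call was also lost without the o2 aorta, at 2.06 (edgeR adjusted p = 0.0550), the n1 liver, at 1.60 (edgeR adjusted p = 0.0962), or the n2 liver, at 1.98 (edgeR adjusted p = 0.0790). It was 2.44 (edgeR adjusted p = 0.0518) over the n libraries alone and 1.12 (edgeR adjusted p = 0.245) over the o libraries alone.

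Neither natriuretic peptide receptor was called between tissues. Npr1, the receptor that makes cGMP, had 43.0, 46.5, 161 and 170.3 CPM in E2 aortas, against 40.9, 36.9, 153 and 149.7 CPM in vehicle aortas. In liver Npr1 had 31, 22.8, 69.0 and 63.9 CPM in E2 livers, against 30.1, 20.8, 100.3 and 92.5 CPM in vehicle livers. The n libraries were above the o libraries in both tissues, and aorta over liver was 0.64 ± 0.26 log2 units (edgeR adjusted p = 0.0527). Npr3, which clears the peptides, was at 3.01 to 4.64 CPM in E2 aortas, 2.97 to 5.13 CPM in vehicle aortas, 3.99 to 11.8 CPM in E2 livers and 3.51 to 10.3 CPM in vehicle livers. Its difference between tissues was -0.54 ± 0.47 log2 units (edgeR adjusted p = 0.352).

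Adra1d, an alpha-1 adrenergic receptor known for contracting the rodent aorta, was all but confined to aorta. It had 4.21, 10.2, 61.6 and 66.9 CPM in E2 aortas, against 4.64, 3.42, 28.5 and 20.1 CPM in vehicle aortas. In liver Adra1d had 0.316, 0, 0.236 and 0 CPM in E2 livers, against 0.295, 0, 0 and 0.162 CPM in vehicle livers. These were 1073 reads over the vehicle aortas and 2 over the vehicle livers, a ratio of 208 on the CPM scale with a 95% counting interval of 57.5 to 1722. The fitted difference was 7.01 ± 0.79 log2 units (edgeR adjusted p = 1.66e-05), and it moved to 8.11 (edgeR adjusted p = 4.10e-05) without the o1 liver and 8.12 (edgeR adjusted p = 5.03e-05) without the o1 aorta, since it rests on those 2 liver reads. Adra1a, another receptor of this type, was at 1.65 to 6.31 CPM in E2 aortas, 1.88 to 4.85 CPM in vehicle aortas, 0.363 to 3.80 CPM in E2 livers and 1.14 to 3.51 CPM in vehicle livers. Its difference between tissues was 0.61 ± 0.55 log2 units (edgeR adjusted p = 0.373).

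The antioxidant genes went both ways between tissues. Hmox1, heme oxygenase-1, which breaks down heme to carbon monoxide and bilirubin precursors, had 144, 199.8, 1122 and 1263 CPM in E2 aortas, against 176, 315, 1454 and 1853 CPM in vehicle aortas. In liver Hmox1 had 34.8, 48.1, 42.6 and 71.5 CPM in E2 livers, against 30.7, 65.8, 47.3 and 65.2 CPM in vehicle livers. All aortas were above all livers, and in aorta the n libraries were above the o libraries. Hmox1 was higher in aorta by 3.64 ± 0.53 log2 units (edgeR adjusted p = 1.32e-04), with 4.77 over the n libraries alone and 2.31 over the o libraries alone, and by 4.28 without the o2 liver (edgeR adjusted p = 2.06e-04). Cat, catalase, which removes hydrogen peroxide, had 76.1, 88.7, 49.3 and 31.5 CPM in E2 aortas, against 83.5, 79.7, 40.1 and 14.4 CPM in vehicle aortas. In liver Cat had 1022, 947, 725 and 451 CPM in E2 livers, against 1167, 1091, 637 and 733 CPM in vehicle livers. Every liver was above every aorta, and the log2 fold change with vehicle was -4.22 ± 0.41 (edgeR adjusted p = 5.31e-06).

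The 3 superoxide dismutases differed from each other. Sod1, the cytosolic form, had 805, 483, 105 and 130.4 CPM in E2 aortas, against 739, 610.2, 109 and 207 CPM in vehicle aortas. In liver Sod1 had 1330, 1064, 2168 and 1958 CPM in E2 livers, against 1249, 1466, 1032 and 1053 CPM in vehicle livers. All aortas were below all livers, with a log2 fold change with vehicle of -1.87 ± 0.43 (edgeR adjusted p = 0.00322), and -2.83 over the n libraries alone and -1.002 over the o libraries alone. Sod3, the extracellular form that guards nitric oxide in the vessel wall, had 13.2, 9.22, 423 and 419 CPM in E2 aortas, against 9.97, 9.97, 444 and 376 CPM in vehicle aortas. In liver Sod3 had 4.11, 5.34, 346 and 122 CPM in E2 livers, against 5.01, 1.38, 271 and 147 CPM in vehicle livers. Here n and o libraries lay more than an order of magnitude apart in both tissues. The difference of 1.37 ± 0.37 log2 units between tissues (edgeR adjusted p = 0.00898) was 0.87 (edgeR adjusted p = 0.0866) over the n libraries alone and 1.75 (edgeR adjusted p = 0.0628) over the o libraries alone. Sod2, the mitochondrial form, had 67.7, 71.0, 148 and 154 CPM in E2 aortas, against 65.6, 81.4, 143 and 206 CPM in vehicle aortas. In liver Sod2 had 31.6, 47.3, 288 and 396 CPM in E2 livers, against 33.9, 55.0, 254 and 199 CPM in vehicle livers. The tissues overlapped, and aorta over liver was 0.18 ± 0.33 log2 units (edgeR adjusted p = 0.666).

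Of the NADPH oxidases, Nox4, which vascular smooth muscle and endothelium are known to express, had 43.8, 146, 48.8 and 26.1 CPM in E2 aortas, against 53.8, 152, 43.6 and 12.2 CPM in vehicle aortas. In liver Nox4 had 0, 1.09, 1.299 and 3.63 CPM in E2 livers, against 1.18, 7.24, 0.572 and 1.14 CPM in vehicle livers. All aortas were above all livers, by 4.86 ± 0.51 log2 units with vehicle (edgeR adjusted p = 8.74e-06). Cybb, the oxidase subunit of phagocytes, had 29.3, 19.2, 2.02 and 0.575 CPM in E2 aortas, against 23.4, 29.5, 1.49 and 1.10 CPM in vehicle aortas. In liver Cybb had 65.5, 77.4, 2.01 and 1.09 CPM in E2 livers, against 82.9, 80.1, 1.33 and 0.812 CPM in vehicle livers. Its o libraries were above its n libraries in both tissues. Aorta over liver was -0.90 ± 0.44 log2 units (edgeR adjusted p = 0.102), 0.19 (edgeR adjusted p = 0.834) over the n libraries alone and -1.63 (edgeR adjusted p = 0.00336) over the o libraries alone, and -1.20 (edgeR adjusted p = 0.0253) without the vehicle n1 aorta, where it passed. The 13 macrophage markers in the table summed to 222 to 411 CPM in vehicle aortas, against 538 to 1617 CPM in vehicle livers, with 0 of the 13 at 0 throughout a group, and their part in the values of Cybb was not tested.

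Both antithrombotic genes were higher in aorta. Thbd, thrombomodulin, which turns thrombin into an activator of protein C, had 98.3, 63.8, 631 and 443 CPM in E2 aortas, against 119, 98.5, 749 and 226 CPM in vehicle aortas. In liver Thbd had 7.59, 12.1, 18.5 and 6.17 CPM in E2 livers, against 8.26, 6.28, 14.1 and 19.6 CPM in vehicle livers. Plat, tissue plasminogen activator, which starts the dissolving of clots, had 95.3, 74.6, 186 and 181 CPM in E2 aortas, against 99.0, 109.5, 238 and 119 CPM in vehicle aortas. In liver Plat had 8.86, 11.9, 2.48 and 3.99 CPM in E2 livers, against 8.26, 9.79, 4.00 and 7.79 CPM in vehicle livers. For both genes every aorta was above every liver. With vehicle, aorta over liver was 4.39 ± 0.45 log2 units for Thbd and 4.21 ± 0.44 for Plat (edgeR adjusted p = 7.39e-06 and 7.99e-06).

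**Figure D2:**
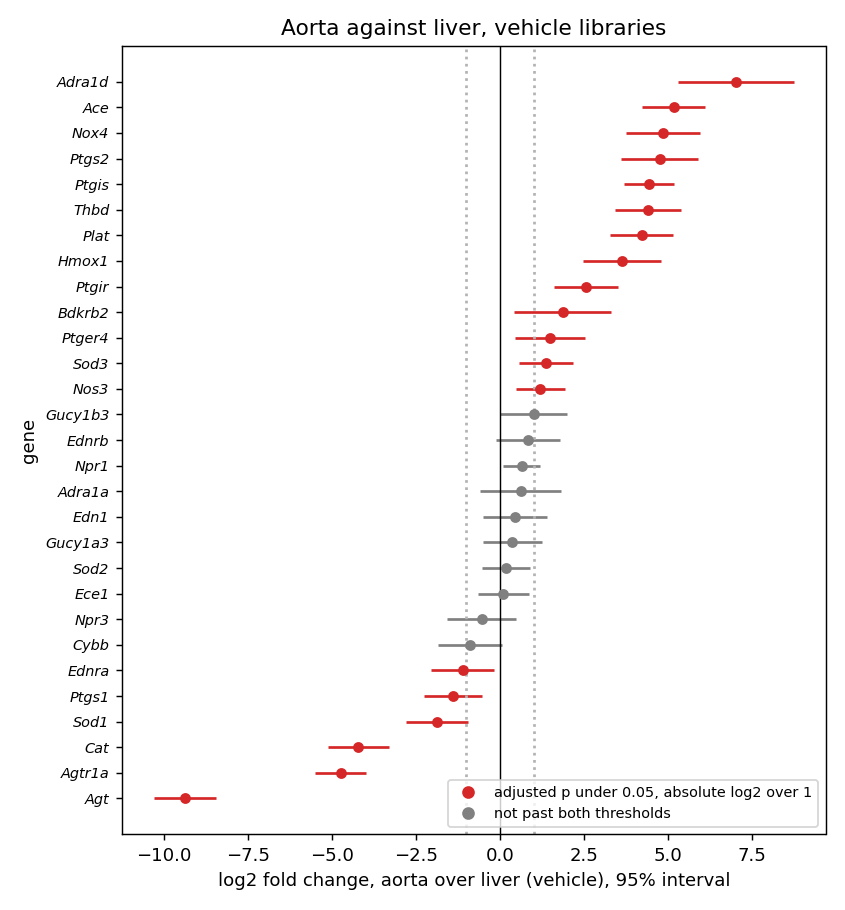
Log2 fold change of aorta over liver with vehicle for the 29 members tested, with 95% intervals; red points passed both thresholds, grey ones did not, and dotted lines mark a log2 fold change of 1 in either direction. Adra1d and Ace lie farthest to the right and Agt farthest to the left, and the value of Adra1d rests on 2 reads in liver.

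Levels of different genes can be compared only per length, and the order of genes depended on library type. Per kilobase of the longest transcript, the highest means in vehicle aorta were Hmox1 (1054 CPM per kb), Ptgis (355) and Sod1 (246) in n libraries, and Sod1 (1053), Ptgs2 (425) and Hmox1 (156) in o libraries. In vehicle liver they were Sod1 (1626 CPM per kb), Agt (596) and Cat (262) in n libraries, and Sod1 (2118), Cat (432) and Ece1 (65.9) in o libraries. Nos1 was lowest in each of the 4. Across the 31 members, the order in n and o libraries had a Spearman rho of 0.795 in vehicle aorta and 0.682 in vehicle liver, as a description of genes that share their libraries.

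Many members also differed between library types. Between n and o libraries, 21 of 30 members tested in aorta passed the threshold (adjusted p under 0.05, absolute log2 fold change over 1), 12 higher in n and 9 lower, where 61% of all 13698 genes passed, 33% higher and 28.1% lower. In liver 15 of 24 passed, 6 higher and 9 lower, where 69.5% of all 11726 genes passed, 33.7% higher and 35.7% lower. The members' share was thus near that of all genes in both tissues. Of the 24 members tested in both tissues, 11 were called in both in the same direction and 0 in opposite directions.

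Sod3 had the largest positive change of n over o, 5.30 ± 0.23 log2 units in aorta and 5.89 ± 0.44 in liver (edgeR adjusted p = 8.19e-08 and 2.29e-09). Cybb had the largest negative one, -4.27 ± 0.38 in aorta and -5.78 ± 0.34 in liver (edgeR adjusted p = 2.27e-06 and 2.28e-10). Ptgis, Agt, Npr1 and Sod2 were also higher in n in both tissues, at 1.70 ± 0.24, 2.72 ± 0.60, 1.92 ± 0.18 and 1.18 ± 0.19 in aorta. In liver these 4 were at 1.52 ± 0.33, 3.74 ± 0.28, 1.63 ± 0.25 and 2.72 ± 0.28. Ptgs2, Ptgir, Ece1, Ednra and Gucy1a3 were lower in n in both, at -1.73 ± 0.33, -2.62 ± 0.27, -1.03 ± 0.23, -3.11 ± 0.38 and -2.58 ± 0.44 in aorta. In liver these 5 were at -4.24 ± 0.37, -3.42 ± 0.55, -2.57 ± 0.25, -2.31 ± 0.32 and -3.35 ± 0.32.

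Other members were called in a single tissue, and the difference between tissues was not tested. Adra1d (2.89 ± 0.30), Hmox1 (2.77 ± 0.25), Thbd (2.45 ± 0.36), Ptger4 (1.67 ± 0.31), Bdkrb2 (1.56 ± 0.50), Ptgs1 (1.14 ± 0.26) and Nos3 (1.08 ± 0.22) were higher in n in aorta. Sod1 (-2.27 ± 0.27), Nox4 (-1.61 ± 0.50) and Cat (-1.30 ± 0.31) were lower in n there. In liver Ace was higher in n (1.55 ± 0.46), and Ednrb (-1.85 ± 0.38), Plat (-1.15 ± 0.44) and Gucy1b3 (-1.14 ± 0.47) were lower. Leaving out 1 library ended the calls of Nos3, Ece1, Bdkrb2 and Nox4 in aorta and of Gucy1b3 and Plat in liver.

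The difference between library types went with the GC content of the transcript. Over all genes it also went with transcript length, and among the members that relation was weaker. Over the 30 members in aorta, Pearson's r between transcript GC content and the log2 fold change of n over o was 0.543 (Spearman 0.556), against 0.610 over 13625 genes. Over the 24 members in liver it was 0.467 (Spearman 0.465), against 0.555 over 11672 genes. With the logarithm of transcript length, Pearson's r was -0.117 over the members and -0.327 over all genes in aorta, and -0.207 over the members and -0.551 over all genes in liver. These describe genes that share the same 8 libraries. Sod3 (52.7% GC) and Ptgir (54.5% GC) have similar GC content and differed in opposite directions between library types in both tissues.

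**Figure D3:**
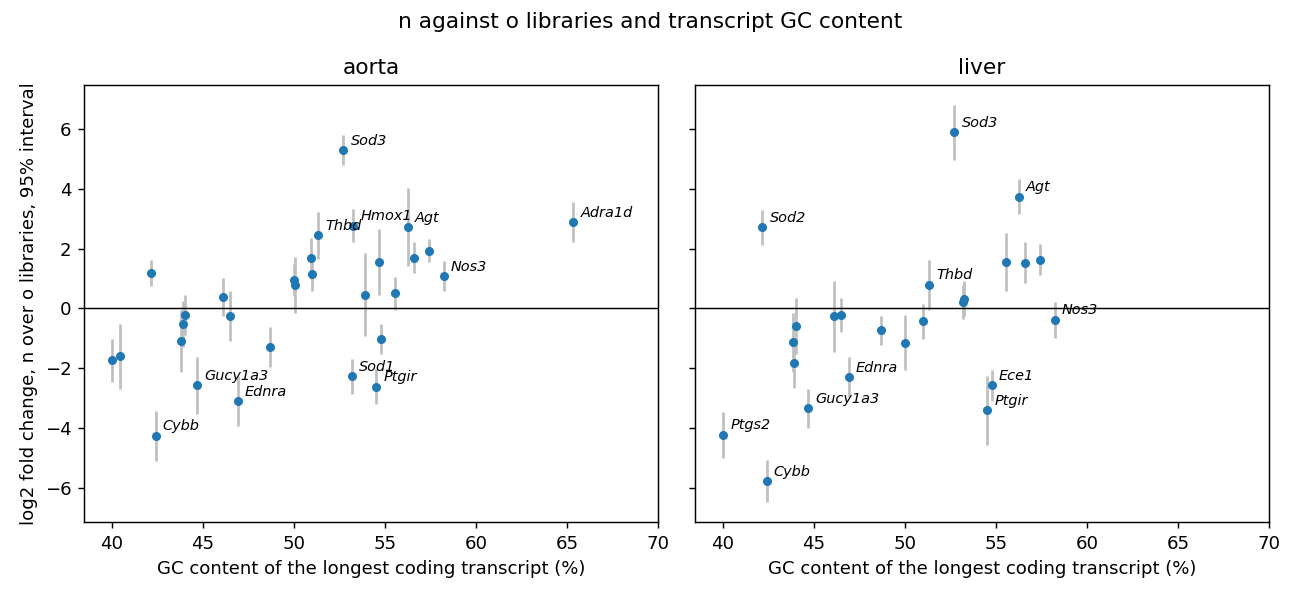
Log2 fold change of n over o libraries (vertical axis, bars are 95% intervals) against the GC content of the longest transcript in percent (horizontal axis), for the 30 members tested in aorta (left) and the 24 tested in liver (right). Points rise to the right in both panels, with Sod3 highest and Cybb lowest.

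With E2 in aorta, 3 members read higher in all 4 suffixes, Edn1, Ece1 and Npr1, where 7.40% of all genes did so, and 4 read lower in all 4, Hmox1, Ptgs1, Ptger4 and Ptgir, where 7.02% did. For 0 of 30 members did the 4 E2 libraries lie wholly apart from the 4 vehicle libraries, which held for 0.423% of all genes. The log2 fold change of E2 over vehicle was positive for 13 members and negative for 17, with a median of -0.11 over the members and -0.0083 over all genes. Differences per suffix below are of log2(CPM + 1), which understates the change of genes at low levels.

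Adra1d had the smallest unadjusted p among members in aorta. Its differences of E2 minus vehicle were -0.11, 1.34, 1.09 and 1.69 in o1, o2, n1 and n2. Both n libraries and o2 were higher with E2, and o1 was slightly lower. The fitted log2 fold change was 1.17 ± 0.28 (95% interval 0.54 to 1.80), with an unadjusted p of 0.00230 and an adjusted p of 0.925 in edgeR's test. With the suffix as a block its adjusted p was 0.156, DESeq2 gave 0.0576, and over all settings tried the value ran from 0.85 to 1.45. The 10 smooth muscle markers, the cell type that carries this receptor, summed to 10990 to 33200 CPM in E2 aortas and 11390 to 21120 CPM in vehicle aortas, and 8 of the 10 had a positive E2 log2 fold change with 0 called. Their part in the values of Adra1d was not tested.

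Edn1 differed by 0.39, 0.54, 0.76 and 0.88 in the 4 suffixes of aorta. Within each suffix the E2 library was above its vehicle library, although the o1 E2 aorta lay below the n1 vehicle aorta. The fitted value was 0.74 ± 0.27 (95% interval 0.13 to 1.35; unadjusted p 0.0231, adjusted p 1), 0.92 over the n libraries alone and 0.56 over the o libraries alone. Ece1, which acts on its product, differed by 0.12, 0.31, 0.15 and 0.58, with a fitted value of 0.27 ± 0.21 (unadjusted p 0.220).

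Hmox1 was lower with E2 in each suffix, by -0.28, -0.66, -0.37 and -0.55. Its difference between library types was much larger than this, so the E2 and vehicle groups overlapped. The fitted value was -0.47 ± 0.16 (95% interval -0.83 to -0.11; unadjusted p 0.0158, adjusted p 1), -0.46 over n alone and -0.47 over o alone. The 11 macrophage markers tested had a median E2 log2 fold change of -0.11 in aorta, 10 of them negative and 0 called, and their part in the values of Hmox1 was not tested.

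Ptgs2 was the single member that any setting called for E2. Its differences were -0.52, -1.08, -0.64 and 0.42: 3 suffixes were lower with E2 and n2 was higher, where the vehicle library was the one that stood apart. The fitted value over all 8 aortas was -0.55 ± 0.33 (95% interval -1.29 to 0.20, unadjusted p 0.130). Without both n2 libraries, a setting added after the data were seen, it was -0.74 with an adjusted p of 0.0365, and 35 genes in all were called. Leaving out 1 library at a time moved it between -0.83 and -0.20.

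The other 4 prostanoid members had values below 0 with E2 in aorta, none past the threshold: Ptgs1 at -0.26 ± 0.20, Ptger4 at -0.32 ± 0.25, Ptgir at -0.28 ± 0.24 and Ptgis at -0.019 ± 0.18 log2 units. Per suffix, Ptgs1 differed by -0.36, -0.17, -0.30 and -0.085, Ptger4 by -0.42, -0.24, -0.28 and -0.11 and Ptgir by -0.26, -0.35, -0.32 and -0.020. Each of these 12 differences was below 0, while the 95% intervals reached up to 0.20 for Ptgs1, 0.25 for Ptger4, 0.27 for Ptgir and 0.38 for Ptgis. The other prostanoid genes, from the list of that pathway, lay on both sides of 0: 7 of the 15 tested had a positive value and 8 a negative one, with a median of -0.036. For Nos3 the value was -0.12 ± 0.19 (95% interval -0.55 to 0.32), with 2 suffixes higher and 2 lower. Gucy1a3 and Gucy1b3 were at 0.62 ± 0.42 and 0.38 ± 0.46, and their largest differences, 1.67 and 1.97, were in n2. Without both n2 libraries they were 0.45 and 0.12.

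In n2 several other members of aorta also stood apart from the remaining suffixes. There, Ednrb, Cat, Nox4, Thbd and Plat were higher with E2 by 0.89, 1.07, 1.04, 0.97 and 0.60, while their fitted values over all libraries were -0.27 ± 0.36, 0.29 ± 0.31, 0.12 ± 0.37, -0.15 ± 0.34 and -0.13 ± 0.23. Without both n2 libraries these were -0.49, 0.11, -0.050, -0.38 and -0.32. Ednrb, Thbd and Plat were lower with E2 in the other 3 suffixes. Npr1, higher in all 4 suffixes, differed by 0.071, 0.33, 0.073 and 0.18, with a fitted value of 0.17 ± 0.14 (unadjusted p 0.274).

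The values of the remaining members in aorta were Nos2 0.40 ± 0.65, Ednra 0.19 ± 0.36, Ace 0.075 ± 0.15, Agtr1a -0.30 ± 0.36, Agt -0.20 ± 0.51, Bdkrb2 -0.52 ± 0.45, Npr3 -0.12 ± 0.26, Adra1a 0.013 ± 0.43, Sod1 -0.26 ± 0.23, Sod2 -0.15 ± 0.17, Sod3 0.080 ± 0.16 and Cybb -0.10 ± 0.35 log2 units. All of these intervals included 0. The narrowest of them was that of Ace, -0.27 to 0.42.

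**Figure D4:**
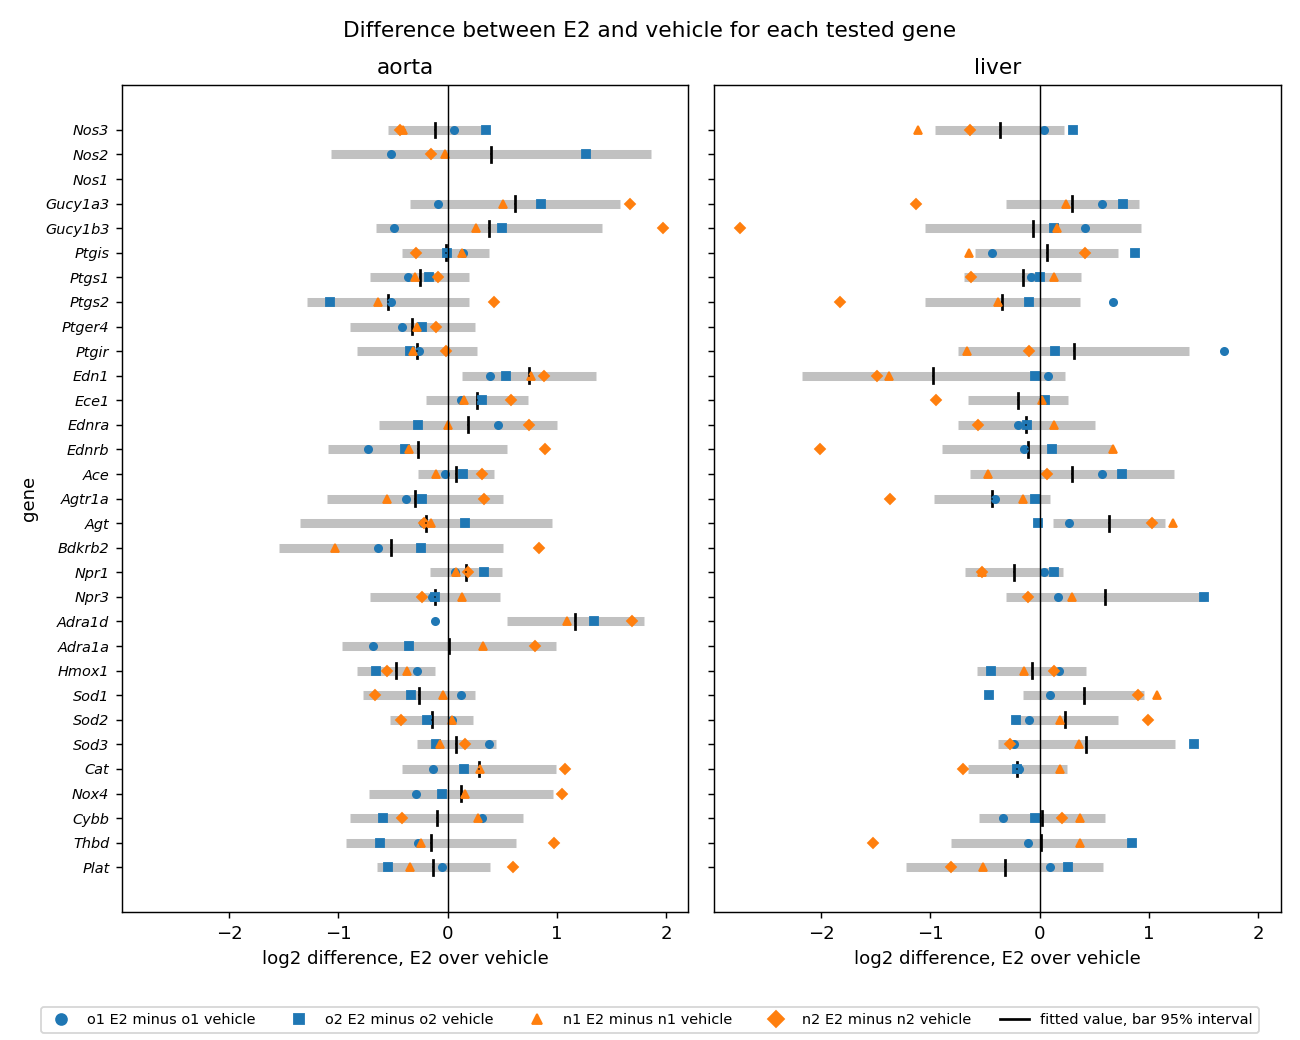
Log2 difference of E2 over vehicle for each member, in aorta (left) and liver (right): symbols are the differences of log2(CPM + 1) in o1, o2, n1 and n2, the black tick is the fitted value and the grey bar its 95% interval. In aorta the bars of Edn1 and Adra1d lie wholly above 0 and that of Hmox1 below 0, in liver that of Agt lies above 0, and none of these passed after adjustment over all genes.

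In liver the suffix was not taken to pair libraries, because the n libraries showed no such pairing. Differences within a suffix there only set libraries of the same letter side by side. The batch term still kept o1 and o2 apart, so the fitted values in liver compared o libraries within their suffix. Agt had the smallest unadjusted p for E2 among members there. Its differences were 0.27, -0.016, 1.21 and 1.02 in o1, o2, n1 and n2. Both n libraries were about 1 log2 unit higher with E2, and the o libraries were close to their vehicle libraries. The fitted value was 0.63 ± 0.24 (95% interval 0.12 to 1.15; unadjusted p 0.0193, edgeR adjusted p 0.939). It was 1.12 over the n libraries alone and 0.12 over the o libraries alone, so it rested on the n libraries. The 9 hepatocyte markers all had positive E2 log2 fold changes in liver, with a median of 0.16 and 0 called. Their summed level was 83100, 79500, 202500 and 193700 CPM in E2 livers, against 87520, 119600, 136000 and 117000 CPM in vehicle livers. Like Agt it was higher with E2 in both n libraries, and it was lower with E2 in both o libraries. The 12 endothelial markers had a median of -0.23. Their part in the values of Agt was not tested.

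Agtr1a was the single member whose differences in liver were below 0 in all 4 suffixes, where 6.52% of all genes had this, and 0 members had all 4 above 0, where 5.95% of all genes did. These counts rest on the suffix, which was not taken to pair libraries in liver. For Agtr1a the differences were -0.41, -0.044, -0.16 and -1.37, the largest in n2. The fitted value was -0.44 ± 0.25 (95% interval -0.97 to 0.091, unadjusted p 0.0978), and without both n2 libraries it was -0.20. Edn1 differed by 0.072, -0.047, -1.38 and -1.49: the n libraries were lower with E2 and the o libraries were not. These rest on 3 to 32 reads per library, and the fitted value was -0.97 ± 0.56 (95% interval -2.18 to 0.23, unadjusted p 0.105). For 0 of 24 members did the E2 livers lie wholly apart from the vehicle livers, against 0.333% of all genes.

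The other members tested in liver were spread around 0, with a median over all 24 of -0.070, against -0.0053 over all genes. Positive values were those of Npr3 0.60 ± 0.43, Sod3 0.42 ± 0.38, Sod1 0.40 ± 0.26, Ptgir 0.31 ± 0.49, Gucy1a3 0.30 ± 0.28, Ace 0.29 ± 0.44, Sod2 0.23 ± 0.23, Ptgis 0.063 ± 0.31, Cybb 0.021 ± 0.27 and Thbd 0.0075 ± 0.38. Negative ones were Nos3 -0.37 ± 0.28, Ptgs2 -0.34 ± 0.33, Plat -0.32 ± 0.42, Npr1 -0.24 ± 0.21, Cat -0.21 ± 0.21, Ece1 -0.20 ± 0.22, Ptgs1 -0.16 ± 0.25, Ednra -0.12 ± 0.30, Ednrb -0.11 ± 0.37, Hmox1 -0.073 ± 0.23 and Gucy1b3 -0.066 ± 0.46. Nos2, Nos1, Ptger4, Adra1d, Adra1a, Bdkrb2 and Nox4 had too few reads in liver to be tested there. Several members stood apart in n2, where the E2 liver held 3896733 reads, the fewest of any library. Gucy1b3, Gucy1a3 and Ece1 differed by -2.74, -1.13 and -0.95 in n2 and were higher with E2 in the other suffixes. Ednrb, Ptgs2 and Thbd differed by -2.02, -1.83 and -1.53 in n2. Agt, Sod1 and Sod2 went the other way there, by 1.02, 0.90 and 0.99.

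**Figure D5:**
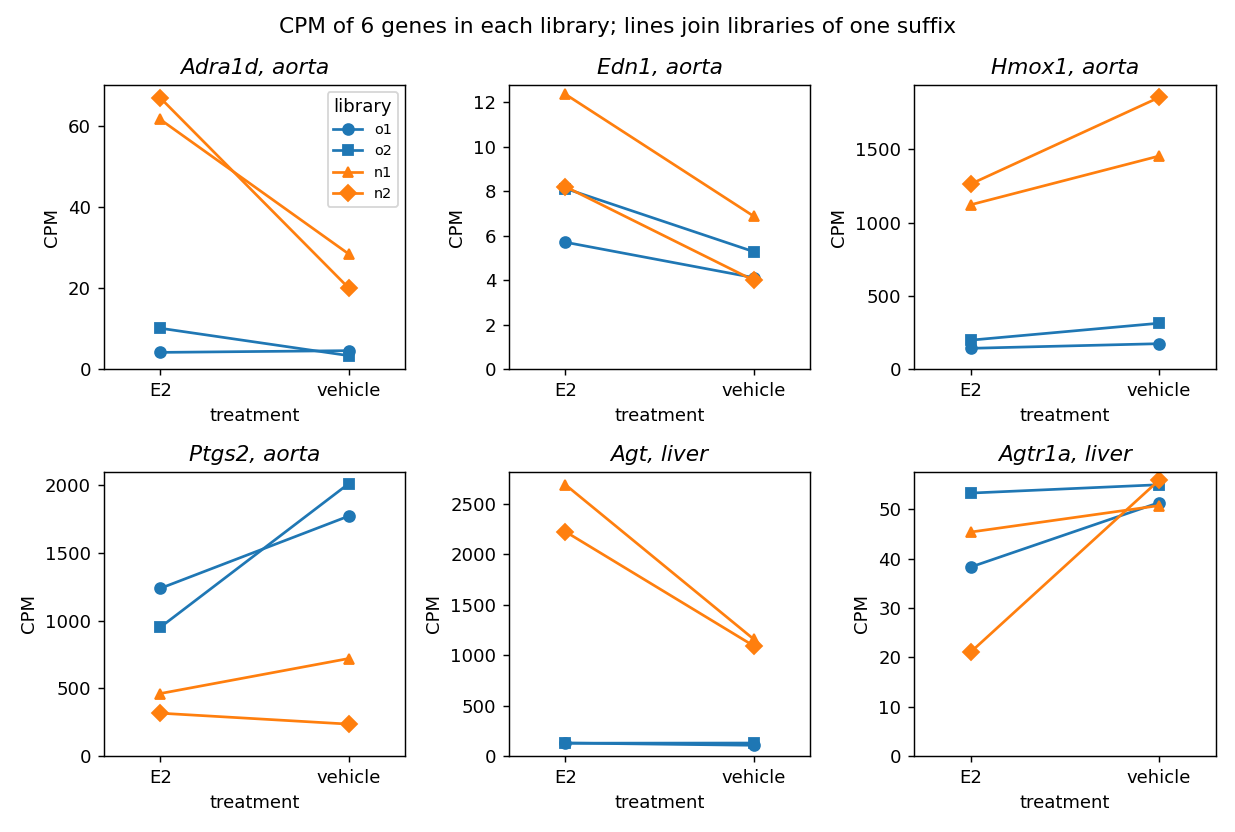
CPM of Adra1d, Edn1, Hmox1 and Ptgs2 in aorta and of Agt and Agtr1a in liver, with E2 on the left and vehicle on the right of each panel. Lines join the libraries of a suffix, which were not taken as pairs in liver, blue for o and orange for n. For Hmox1 the distance between o and n libraries is larger than that between E2 and vehicle. For Adra1d and Agt this holds among the E2 libraries. Their vehicle o and n libraries lie closer together than E2 and vehicle do in n1 or n2. The line of n2 runs against the others for Ptgs2.

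Whether E2 acted differently on aorta than on liver was tested as an interaction, aorta minus liver, and edgeR called 0 of 14190 genes (0%) and 0 of 30 members. DESeq2 called 12 genes and limma voom 0, with 0 members each. At an unadjusted p under 0.05 there were 761 genes (5.36%) and 1 member, Edn1. The effect of E2 on Edn1 was 1.72 ± 0.59 log2 units more positive in aorta than in liver (95% interval 0.48 to 2.96; unadjusted p 0.00967, adjusted p 0.875), 3.04 over n libraries alone and 0.55 over o libraries alone. Agt had -0.80 ± 0.47 (95% interval -1.80 to 0.20) and Nos3 0.27 ± 0.35 (95% interval -0.47 to 1.01).

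Other genes of the same pathways, from lists of 139 genes in all, gave 0 calls for E2 in either tissue in edgeR. In aorta the 5 with the smallest unadjusted p were Ptges, a prostaglandin E synthase, at -0.93 ± 0.27 log2 units (p 0.00669), Mrvi1, a substrate of the cGMP-dependent kinase in smooth muscle, at 0.88 ± 0.26 (p 0.00751), Plg, plasminogen, at -1.23 ± 0.36 (p 0.00823), Plaur, the urokinase receptor, at -0.69 ± 0.21 (p 0.00899), and Procr, the protein C receptor, at -0.60 ± 0.18 (p 0.00959). Plg is made by hepatocytes, and in aorta all 7 hepatocyte markers tested had negative E2 log2 fold changes with a median of -0.84. The part of hepatocyte RNA in the value of Plg was not tested. In liver the 4 with the smallest unadjusted p were Spr, which makes the nitric oxide synthase cofactor, at 0.69 ± 0.23 (p 0.00782), the mitochondrial thioredoxin Txn2 at 0.56 ± 0.20 (p 0.0120), Ccs, the copper chaperone of Sod1, at 0.50 ± 0.20 (p 0.0235), and Txnrd2, a thioredoxin reductase, at 0.61 ± 0.24 (p 0.0236). By list, the median E2 log2 fold change ran from -0.51 (NADPH oxidase, 8 tested) to 0.085 (adrenergic, 13 tested) in aorta, and from -0.23 (NADPH oxidase, 8 tested) to 0.15 (antioxidant, 27 tested) in liver. Several genes of the NADPH oxidase list are known from leukocytes, and leukocyte markers had values on the same side of 0. In aorta all 8 lymphocyte markers tested were negative, with a median of -1.17, as were 10 of 11 macrophage markers, with a median of -0.11. The summed level of the lymphocyte markers in aorta was lower with E2 in o2 and n2 but higher with E2 in o1 and n1. The vehicle n2 aorta alone held 148 CPM of these markers, against 8.42 to 35.7 CPM in the other vehicle aortas. How far the lymphocyte median rests on that library was not tested. In liver 5 of 5 lymphocyte markers and 12 of 13 macrophage markers were negative, with medians of -0.60 and -0.36. Of these markers 0 were called, and their part in the values of the list was not tested.

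The same lists were compared between tissues, by the thresholds used for the members, where 24.1% of all genes were higher in aorta and 23.4% lower, 47.5% in all. Of the nitric oxide and cGMP list, 8 of 23 tested were higher in aorta and 9 lower, led by Cav1, the caveolin that holds Nos3 inactive (4.50 ± 0.61), and Pde3a, a cyclic nucleotide phosphodiesterase (3.78 ± 0.37), and by Arg1 (-7.36 ± 0.42) and Ass1 (-7.29 ± 0.41) of the urea cycle. Of the prostanoid list, 2 of 13 were higher, Ptges (3.82 ± 0.57) and the phospholipase Pla2g4a (3.14 ± 0.46), and 5 lower, led by Ptgds (-6.18 ± 0.58) and Hpgd (-3.76 ± 0.53). The endothelin and natriuretic list had 0 of 4 higher and 1 lower, Npr2 (-1.21 ± 0.28), the receptor of C-type natriuretic peptide. Of the renin-angiotensin and kinin list, 3 of 11 were higher, led by the mast cell chymase Cma1 (3.39 ± 0.87) and Lnpep (1.85 ± 0.40), and 6 lower, led by Klkb1 (-10.34 ± 0.52, on 5 reads over the vehicle aortas) and Kng1 (-9.77 ± 0.77), both made by liver.

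In the adrenergic list 4 of 11 were higher in aorta, led by the G-protein regulators Rgs4 (3.35 ± 0.65) and Rgs5 (3.28 ± 0.44), and 4 lower, led by Adra1b (-4.80 ± 0.37) and Adra2b (-4.23 ± 0.44). Among antioxidant genes 4 of 27 were higher, led by Srxn1 (2.91 ± 0.58) and Gpx3 (1.98 ± 0.43), and 6 lower, led by Ccs (-3.75 ± 0.37) and Blvrb (-2.83 ± 0.31). The NADPH oxidase list had 1 of 8 higher, Rac1 (2.01 ± 0.29), and 1 lower, Poldip2 (-1.12 ± 0.26). Of the fibrinolysis and thrombosis list 10 of 20 were higher, led by the protease inhibitor Serpine2 (6.03 ± 0.37), and 5 lower, led by the liver-made Proc (-10.64 ± 0.54) and Plg (-9.92 ± 0.64).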

How the data were processed

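RNA sequencing of 16 libraries gave 1 deposited table of reads per gene symbol. It is treated here as estimated counts, which the authors deposited without normalization: the gene lines are whole numbers, and each column ends with a line of percentages. Reads had been aligned to mm9, and the submitters' processing notes name Bowtie 0.12.5, HTSeq 0.4.5p7 and edgeR 3.4.2, while no label or header names the annotation, the strand setting or the filters. The 8 lines that name no gene were not used in any library size or test. Among them, reads outside any gene made up 48.0% to 75.2% of a library and ambiguous reads 0.0452% to 0.523%. Counts were rounded to whole numbers, which changed no gene line.

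Each column name gives the tissue and the treatment, and 0 columns were left unused. Tests used edgeR 4.0.16 (R 4.3.3) with TMM scaling, filterByExpr (minimum count 10, minimum total 15), the quasi-likelihood test and Benjamini-Hochberg adjustment over all genes tested, with a threshold of 0.05. The tissue and library-type comparisons also required an absolute log2 fold change over 1. A batch of 3 levels (o1, o2, n) was a covariate for the E2 and tissue comparisons, and treatment for library type. Because n1 and n2 shared a level, the main E2 fit in aorta did not use the pairing of n libraries by suffix. Only the fit with the suffix as a block did so. Standard errors were derived from each log2 fold change and its F statistic. Alternatives used limma 3.58.1 and DESeq2 1.42.0. The main edgeR fits for E2 in each tissue, for aorta against liver and for library type in aorta were also run on simulated data. The other fits and the alternatives were not. CPM were TMM-scaled within a tissue and divided by 1 constant per tissue (1.213 in aorta, 0.768 in liver). This puts both on the scale of the vehicle comparison. Lengths and GC content come from the longest transcript of GENCODE vM21, matched by symbol for 98.4% of 24011 genes. Intervals of read ratios cover counting error only.

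Pairing by suffix was checked as the correlation, over genes, of the deviations of the E2 and the vehicle library from the mean of their letter. It was 0.504 (o) and 0.436 (n) in aorta, and 0.295 (o) and -0.0553 (n) in liver. The suffix was taken to pair libraries in a tissue only if both letters showed it, so in aorta and not in liver. This pairing is inferred from the data, since no label pairs the libraries. The batch of the main fits still compared o libraries within their suffix in liver. The members and the lists of pathway and marker genes were chosen with earlier results of these data known. Every member is accounted for, and values in every library are given for those called in any comparison, those with an unadjusted p under 0.05 for E2, those that moved one way in all 4 suffixes and the highest of each pathway. Of the pathway lists, the 5 genes with the smallest unadjusted p for E2 are named in each tissue, and up to 2 called genes in each direction between tissues, except that 1 gene of each of these choices is not reported here.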

Additional observations from a re-analysis of the deposited data

Results flagged for a closer look

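In 3 of the 108 combinations of a member and a group of 4 libraries, 1 library lay far outside the other 3, by a gap of more than 0.829 of the whole range of the group. Chance alone gives this in about 5% of groups if the 4 values come from 1 normal distribution. Each group here mixes o and n libraries, which differed for many members, so the number found cannot be judged by that rate. Ptgir was at 18.4 CPM in the vehicle o2 liver, against 1.62 to 4.13 CPM in the other 3 vehicle livers. Bdkrb2 was at 12.3 CPM in the vehicle n1 aorta, against 1.72 to 3.36 CPM in the other 3 vehicle aortas. Plat was at 237.5 CPM in the same n1 aorta, against 99.0 to 119 CPM in the other 3.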

How the results depend on the processing

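For E2, 0 members were called in either tissue and 0 for the difference between tissues under every planned setting, DESeq2 and limma voom among them, and including each library left out in turn (0 to 0 members). With both n2 libraries left out, a setting chosen after seeing the data, 1 member was called in aorta, Ptgs2. With the suffix as a replicate block, members called for E2 stayed at 0 in aorta and liver and for their difference. The block called 12 genes of all in aorta, 18 with a length correction as well, 1 for the difference and 0 in liver, and without both o2 libraries it called 0 in aorta. Counts over all genes in aorta were otherwise 17 without the vehicle n2 library, 35 without both n2, 33 over the o libraries alone and 24 with DESeq2, against 0 with all libraries. In liver they were 6 without the filter on low counts, 5 over the o and 1 over the n libraries alone, and 0 to 1 with a library left out. For the difference they were 12 with DESeq2, 2 over the o libraries alone and 0 to 4 with a library left out. The cause was not tested. Between tissues 19 members were called, 18 with the block (without Bdkrb2), 16 over the o and 14 over the n libraries alone, and 16 to 19 with a library left out. Between library types 21 members were called in aorta and 15 in liver, and 19 to 22 and 14 to 16 with a library left out. No called value reversed its sign in the settings tried. Too few reads kept 1 member from being tested for E2 in aorta, Nos1, and 7 in liver.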
